A study of Homo sapiens with 15 samples.

Results

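The genes described here are 35 listed genes of amino acid stress and of the endoplasmic reticulum (ER), taken by symbol from a count table of 35012 gene symbols in HepG2 cells, an established human liver cancer line. They fall into an ATF4 branch of 14 genes and a group of 21 ER stress genes (chaperones, folding enzymes, sensors and degradation factors). Low counts kept CHAC1 out of the tests, so 34 members were among the 14621 genes tested. RNA was sequenced from cells carrying short hairpin RNAs against BRG1 (n = 4), against BRM (n = 3) or against both (double knockdown, n = 4), and from cells carrying a non-silencing hairpin (NS, n = 4). BRG1, encoded by SMARCA4, and BRM, encoded by SMARCA2, are the alternative ATPases of SWI/SNF chromatin remodelling complexes. Every group, NS included, was transduced with lentivirus in polybrene, selected with puromycin and harvested on day 5, so no group shows these genes in untransduced cells. The labels do not give the number of hairpins per target, and they do not say that libraries of a group came from separate cultures. The tests therefore weigh differences against the spread of these libraries, part or all of which could be technical.

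ATF4 is a transcription factor whose protein is made mainly when the initiation factor eIF2α is phosphorylated, as happens in amino acid shortage or ER stress. It activates genes for amino acid synthesis, amino acid import, mitochondrial one-carbon metabolism and its own feedback inhibitors. Unfolded proteins in the ER are sensed by IRE1 (ERN1), PERK (EIF2AK3) and ATF6, which raise the chaperones, the folding enzymes and the machinery that sends misfolded proteins to the proteasome. Hepatocytes secrete much protein and carry a large ER. Cleavage of ATF6, splicing of XBP1, phosphorylation of eIF2α and translation of ATF4 were not measured here, since the table counts transcripts per gene.

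Total counts per library ranged from 11500149 to 27187991. The hairpin targets followed the labels: SMARCA4 averaged 27.8 ± 2.32 CPM (counts scaled to the TMM-adjusted library total, mean ± SD, n = 4) after BRG1 knockdown and 46.2 ± 6.09 in the double knockdown, against 307 ± 6.99 with NS. SMARCA2 averaged 4.38 ± 2.22 CPM after BRM knockdown (n = 3) and 2.57 ± 0.299 in the double knockdown (n = 4), against 39.2 ± 4.05 with NS. In every group, libraries 1 and 2 stood apart from libraries 3 and 4, with 4.97 to 8.33% of counts from mitochondrial DNA against 1.33 to 3.55%. The labels do not name this division, and values within libraries 1 and 2 and within libraries 3 and 4 are given beside the pooled ones, in that order. Within libraries 3 and 4, BRM knockdown has 1 library. All 10 hepatocyte markers examined were detected in every library. Among 13 markers of blood, stromal, endothelial and other cells, HBB was at 0 in 14 libraries, COL3A1 in 6, DCN in 2 and VWF in 1. The rest had counts in every library, among them LYZ at 76.6 to 1654 CPM, SOX9 at 88.3 to 263, CD68 at 28.4 to 93.3 and COL1A1 at 10.2 to 239.

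The promoters show which members carry the recognition sequences that ER stress factors are known to use. RefSeq promoter windows (GRCh38.p14, 300 bases, 250 before and 50 after the start) were found for 31 of the 35 members, and PSPH, PDIA3, SLC7A11 and SHMT2 had none. The ER stress response element (ERSE, searched on both strands as CCAAT, a spacer of 9 bases and CCACG), bound by NF-Y together with ATF6 or XBP1, was present in 7 members, all ER stress genes. It was present in 0.0769% of all 35116 promoters. The shorter ERSE-II (searched as ATTGG, a spacer of 1 base and CCACG) was present in HYOU1, SDF2L1 and HERPUD1 and in 0.0541% of all promoters. A core of the composite element bound by ATF4 (searched as TGATGNAA) was present in ASNS, CHAC1, SLC3A2 and HERPUD1 and in 3.62% of all promoters. ERSE and ERSE-II matches do not overlap, and no motif match shows binding. The promoter of HSPA5, which encodes the ER chaperone BiP, is shown for the 250 bases before its start (chr9:125241344-125241593, minus strand), with the ERSE in capitals.
HSPA5: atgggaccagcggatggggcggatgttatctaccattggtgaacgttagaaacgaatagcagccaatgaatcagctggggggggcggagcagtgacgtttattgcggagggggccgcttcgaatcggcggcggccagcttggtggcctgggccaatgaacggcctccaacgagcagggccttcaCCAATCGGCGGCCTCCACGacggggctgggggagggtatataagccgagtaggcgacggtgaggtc

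The other 6 promoters with an ERSE are shown as the match in capitals with 20 flanking bases on each side, 5′ to 3′ along the gene, because the transcripts of all 6 are described below. HSP90B1 held a further reverse match nearer the start. In CALR and CRELD2 the match lies on the opposite strand, so the capitals read as its reverse complement. The windows are HSP90B1 at chr12:103930196-103930254 (plus strand), CALR at chr19:12938364-12938422 (plus), CANX at chr5:179698758-179698816 (plus), CRELD2 at chr22:49918534-49918592 (plus), PDIA6 at chr2:10812833-10812891 (minus) and XBP1 at chr22:28800583-28800641 (minus).
HSP90B1: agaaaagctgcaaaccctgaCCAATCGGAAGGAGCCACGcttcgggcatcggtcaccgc
CALR: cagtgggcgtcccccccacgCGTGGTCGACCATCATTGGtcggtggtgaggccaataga
CANX: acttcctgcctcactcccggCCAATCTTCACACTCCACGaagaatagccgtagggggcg
CRELD2: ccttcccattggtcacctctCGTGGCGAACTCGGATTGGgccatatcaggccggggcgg
PDIA6: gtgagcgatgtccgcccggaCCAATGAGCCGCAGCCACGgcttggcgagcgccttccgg
XBP1: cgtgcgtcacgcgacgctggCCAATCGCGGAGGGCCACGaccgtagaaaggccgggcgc

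The ATF4 core is shown for ASNS (chr7:97872449-97872496, minus strand) and CHAC1 (chr15:40953242-40953289, plus strand, reverse match), with the core in capitals, and the ERSE-II for SDF2L1 (chr22:21642094-21642144, plus strand, reverse match). They represent the other motifs searched.
ASNS: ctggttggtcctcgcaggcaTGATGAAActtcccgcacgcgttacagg
CHAC1: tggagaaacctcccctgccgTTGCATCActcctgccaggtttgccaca
SDF2L1: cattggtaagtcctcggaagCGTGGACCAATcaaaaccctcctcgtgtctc

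**Figure D1:**
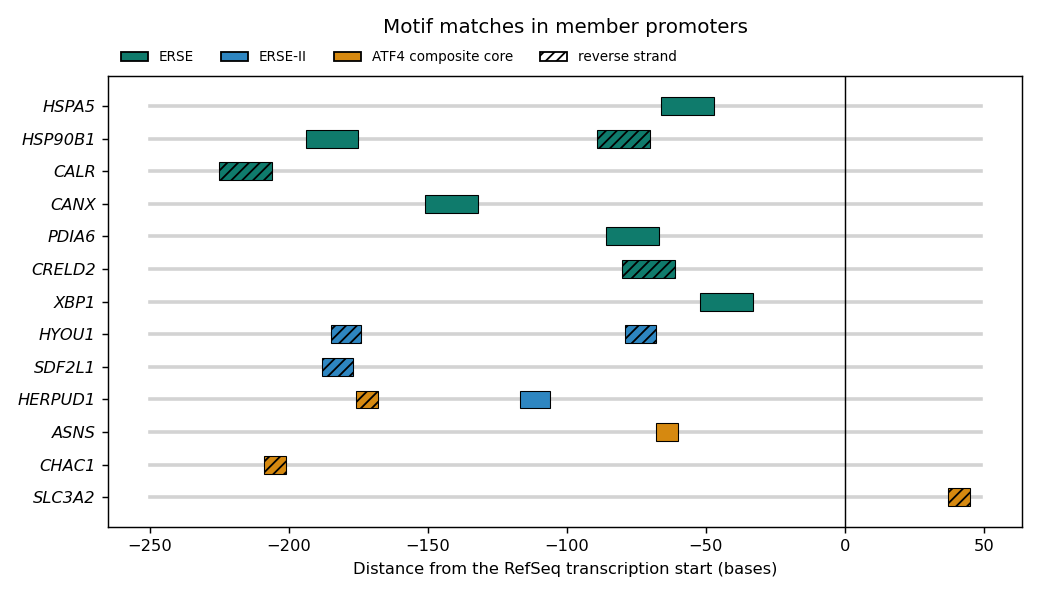
Positions of the 3 searched motifs in the 13 member promoters that held at least 1, with the distance from the annotated start in bases on the horizontal axis and 1 gene per row. The ERSE matches lie in 7 ER stress genes, and the ATF4 core lies in 3 genes of the ATF4 branch and in HERPUD1.

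In the ATF4 branch, BRG1 knockdown lowered transcripts of ATF4 itself, of the stress factor DDIT3 and of serine synthesis enzymes, and raised the feedback phosphatase subunit PPP1R15A. Of 13 tested genes, 5 were lower (ATF4, DDIT3, PSAT1, PHGDH and MTHFD2) and 1 was higher after BRG1 knockdown, at an adjusted p under 0.05 in edgeR's quasi-likelihood test. Over all 14621 genes tested, 9.97% were called lower and 12.5% higher. Of the 5 lower genes, only ATF4 kept its call without each single library in turn. In 2 of the 14 genes of the branch every BRG1 knockdown library lay below every NS library, about the 13.1% over all genes. Counting both directions and branches, 17 of 34 members were called after BRG1 knockdown, 6 after BRM knockdown and 15 in the double knockdown, where 22.5%, 13.9% and 21.6% of all genes were called. The median log2 change over the branch was −0.67 after BRG1 knockdown, within the sets −0.48 and −0.63, against 0.02 over all genes. After BRM knockdown, DDIT3 was higher and SLC7A11 was lower among the 13 over all libraries, where 7.66% of all genes were called higher and 6.26% lower. With a term for the set in the fit, TRIB3, PSAT1, PHGDH, PSPH, SHMT2, SLC7A5 and SLC3A2 were also higher after BRM knockdown (edgeR adjusted p = 0.000235 to 0.021). That made 8 higher and 1 lower of the 13, where this fit called 18.3% of all genes higher and 13.7% lower, so the count for BRM knockdown rests on how the sets are treated. The double knockdown raised PPP1R15A alone among the 13, where 11.8% of all genes were called higher and 9.9% lower. The 3 comparisons share the NS libraries. Unless a block or a set term is named, passing refers to the test over all 15 libraries without either. In bulk RNA, fewer cells of a kind and less RNA per cell cannot be told apart.

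ATF4 (chromosome 22, 39519695 to 39522685, plus strand, GRCh38) was present at 196, 164, 246 and 259.7 CPM after BRG1 knockdown, 419, 439 and 417 after BRM knockdown and 334, 402, 306 and 327 in the double knockdown, against 383, 397, 382 and 382 with NS, listed by library number. All 4 BRG1 knockdown libraries lay below all NS libraries, while BRM knockdown libraries lay above them. The log2 change was −0.84 ± 0.16 (estimate ± SE, edgeR adjusted p = 0.00154) after BRG1 knockdown, with −1.12 and −0.63 by set, and it kept its call without any single library. BRM knockdown gave 0.14 ± 0.17 (adjusted p = 0.672) and the double knockdown −0.17 ± 0.16 (adjusted p = 0.48), neither past the threshold.

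DDIT3, which encodes the factor CHOP and shares exon bases with MARS and MBD6 (chromosome 12, 57516588 to 57521737, minus strand), was present at 5.96, 4.81, 8.61 and 6.58 CPM after BRG1 knockdown, 23.2, 21.1 and 14.7 after BRM knockdown and 18.6, 18.8, 13.4 and 12.3 in the double knockdown, against 11.02, 12.1, 7.75 and 10.3 with NS. All BRM knockdown and double knockdown libraries lay above all NS libraries, and BRG1 knockdown overlapped NS at its low end. The log2 change was −0.67 ± 0.23 after BRG1 knockdown (adjusted p = 0.0497, by set −1.09 and −0.30). It was 0.93 ± 0.24 after BRM knockdown (adjusted p = 0.0198, by set 0.94 and 0.61). With both hairpins, its change of 0.61 ± 0.23 did not pass (adjusted p = 0.0687), but passed with the library number as a block (adjusted p = 0.0445). The 2 single knockdowns thus moved DDIT3 in opposite directions relative to NS, and their direct comparison is given further on.

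PPP1R15A, which encodes GADD34, the subunit that directs a phosphatase to eIF2α (chromosome 19, 48872392 to 48876057, plus strand), was present at 98.2, 92.6, 73.96 and 74.3 CPM after BRG1 knockdown, 31.1, 46.5 and 44.3 after BRM knockdown and 72.3, 89.7, 112 and 74.3 in the double knockdown, against 46.1, 38.8, 25.4 and 38.6 with NS. Every BRG1 knockdown and double knockdown library lay above every NS library, and BRM knockdown overlapped NS. The log2 change was 1.19 ± 0.21 after BRG1 knockdown (adjusted p = 0.000998, by set 1.17 and 1.16) and 1.22 ± 0.21 in the double knockdown (adjusted p = 0.000784, by set 0.93 and 1.49). After BRM knockdown it was 0.13 ± 0.22 (adjusted p = 0.784). In BRG1 knockdown, PPP1R15A moved opposite to ATF4, the factor that activates it. TRIB3, a pseudokinase that restrains ATF4, ranged from 44.4 to 251 CPM after BRG1 knockdown, against 72.6 to 420.1 with NS. The sets differed more than the groups, and its log2 change of −0.83 ± 0.78 did not pass (adjusted p = 0.515). It passed with the library number as a block (adjusted p = 0.00288) and also with the set term.

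**Figure D2:**
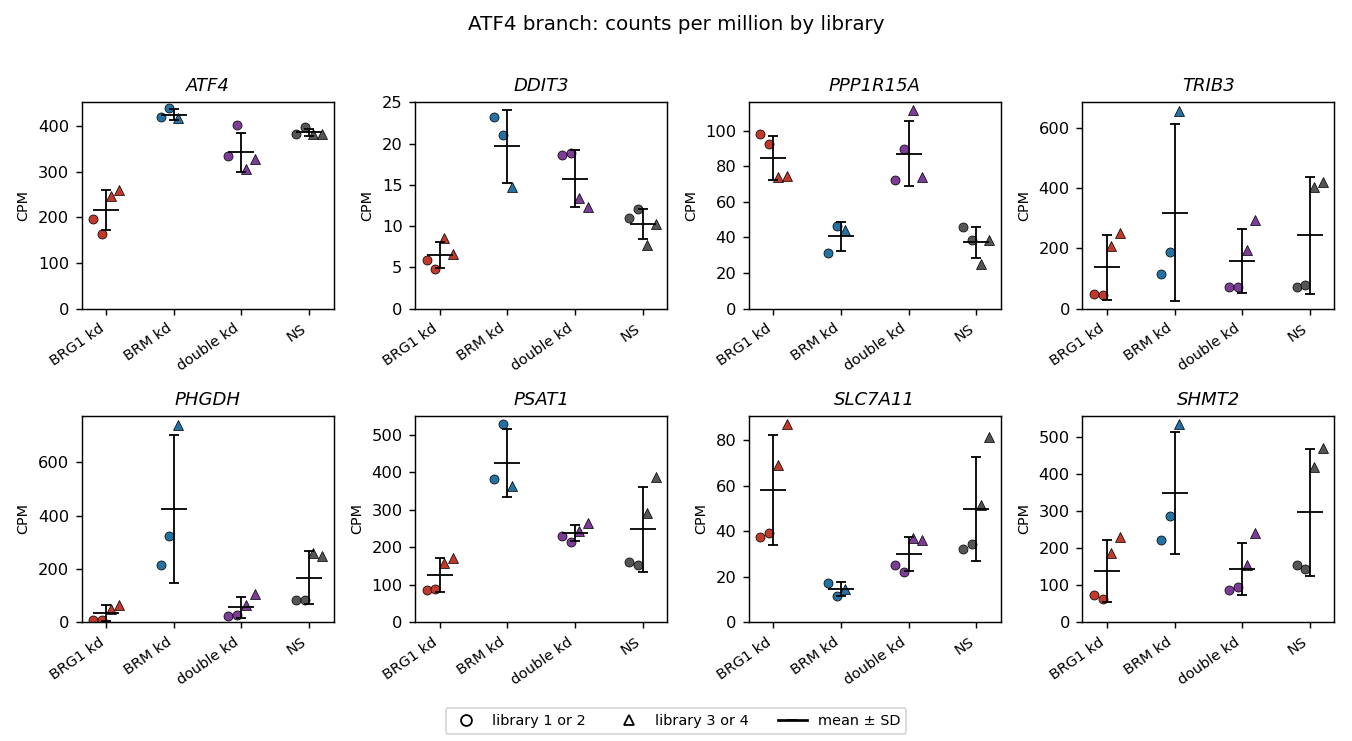
CPM per library (vertical axes, each from 0) for 8 genes of the ATF4 branch, by group on the horizontal axis, with libraries 1 and 2 as circles, libraries 3 and 4 as triangles and bars for mean ± SD. PPP1R15A lies at 74.0 to 98.2 CPM after BRG1 knockdown and at 25.4 to 46.1 with NS, and PHGDH differs by set within each group.

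The first enzymes of serine synthesis fell after BRG1 knockdown, and the last enzyme, PSPH, did not pass. PHGDH, which makes the first and committed step from 3-phosphoglycerate (chromosome 1, 119648411 to 119744226, plus strand), was present at 8.13, 7.91, 51.4 and 65.6 CPM after BRG1 knockdown, 214, 324 and 739.6 after BRM knockdown and 21.9, 27.1, 66.4 and 106 in the double knockdown, against 82.5, 82.2, 258 and 247 with NS. The 2 sets were far apart within every group, and within each set every BRG1 knockdown library lay below every NS library and every BRM knockdown library lay above it. The log2 change was −2.33 ± 0.75 after BRG1 knockdown (adjusted p = 0.0383), with −3.36 and −2.15 by set. BRM knockdown gave 1.34 ± 0.77 (adjusted p = 0.291, by set 1.71 and 1.47), which passed with the set term (adjusted p = 0.000235). The double knockdown gave −1.60 ± 0.74 (adjusted p = 0.142, by set −1.75 and −1.60), which passed with the block (adjusted p = 0.000128).

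PSAT1, the aminotransferase of the next step (chromosome 9, 78297143 to 78330093, plus strand), was present at 84.6, 89.2, 158 and 173 CPM after BRG1 knockdown, 383, 529 and 363 after BRM knockdown and 230.3, 215, 242 and 265 in the double knockdown, against 159.8, 154, 291 and 389 with NS. BRG1 knockdown libraries lay lower than NS libraries within each set, and the pooled groups overlapped. Its log2 change was −0.98 ± 0.31 after BRG1 knockdown (adjusted p = 0.0339, by set −0.85 and −1.08). After BRM knockdown it was 0.77 ± 0.33 (adjusted p = 0.14 without and 0.00648 with the set term, by set 1.54 and 0.01), and the double knockdown gave −0.06 ± 0.31 (adjusted p = 0.923, by set 0.51 and −0.47). PSPH, the phosphatase that releases serine, gave a log2 change of −0.16 ± 0.18 after BRG1 knockdown (adjusted p = 0.593). In the double knockdown PSPH changed by 0.40 ± 0.18, which passed with the block (adjusted p = 0.127 without and 0.0318 with it). ASNS, asparagine synthetase, did not pass in any of the 3 comparisons with NS, with a log2 change of −0.29 ± 0.42 after BRG1 knockdown (adjusted p = 0.701). CHAC1, which degrades glutathione, had 1 to 4 counts in BRG1 knockdown libraries, 0 to 4 in BRM knockdown, 0 to 2 in the double knockdown and 0 to 1 with NS, too few for a fold.

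In mitochondrial one-carbon metabolism, MTHFD2, a methylenetetrahydrofolate dehydrogenase that shares exon bases with SLC4A5 (chromosome 2, 74198562 to 74217565, plus strand), was present at 71.7, 68.9, 86.6 and 93.9 CPM after BRG1 knockdown, 98.2, 129 and 91.6 after BRM knockdown and 93.96, 87.8, 111 and 96.5 in the double knockdown, against 96.4, 90.7, 136 and 176 with NS. Within each set the BRG1 knockdown libraries lay below the NS libraries, and the pooled groups overlapped. BRG1 knockdown gave a log2 change of −0.64 ± 0.21 (adjusted p = 0.0392, by set −0.41 and −0.83). SHMT2, the serine hydroxymethyltransferase that feeds it, gave −1.09 ± 0.52 after BRG1 knockdown and −1.04 ± 0.52 in the double knockdown. Both passed with the block (adjusted p = 7.66e-05 and 0.000213, against 0.154 and 0.173 without it).

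Of the transporters, SLC7A11, the cystine importer that supplies glutathione synthesis (chromosome 4, 138164097 to 138242349, minus strand), was present at 37.4, 38.98, 68.9 and 86.97 CPM after BRG1 knockdown, 17.4, 11.4 and 14.6 after BRM knockdown and 25.1, 22.1, 36.9 and 35.9 in the double knockdown, against 32.04, 34.4, 51.4 and 81.5 with NS. The 3 BRM knockdown libraries were below every NS library, and BRG1 knockdown overlapped NS. BRM knockdown lowered it, with a log2 change of −1.79 ± 0.38 (edgeR adjusted p = 0.00642, by set −1.22 and −2.28). BRG1 knockdown gave 0.22 ± 0.33 (adjusted p = 0.709). The double knockdown gave −0.73 ± 0.33 (adjusted p = 0.137), which passed with the block (adjusted p = 0.00962). SLC3A2, the heavy chain that SLC7A11 and SLC7A5 share, gave 0.67 ± 0.41 after BRM knockdown, past the threshold with the set term (adjusted p = 0.325 without and 0.00203 with it), and did not pass in the other comparisons with NS. SLC7A5, a leucine transporter, gave −0.68 ± 0.38 after BRG1 knockdown, past the threshold with the block (adjusted p = 0.23 without and 0.0099 with it).

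Among the ER stress genes, BRG1 knockdown lowered 11 of 21, against 9.97% of all genes. These were all 5 lectins and disulfide isomerases, 5 of 9 chaperones and cofactors and 1 of 3 degradation genes. The 3 sensors and XBP1 did not pass. In 12 of the 21, every BRG1 knockdown library lay below every NS library, which held for 13.1% of all genes. The same held for 7 after BRM knockdown (10.8% of all genes) and for 13 in the double knockdown (12.8%). The double knockdown lowered 12, namely 4 of 5 lectins and isomerases, 5 of 9 chaperones and cofactors, the sensors ATF6 and EIF2AK3 and 1 degradation gene. It raised ERN1 and EDEM1, where 9.9% of all genes were called lower and 11.8% higher. BRM knockdown lowered 4 (ATF6, DNAJB11, CRELD2 and SEL1L), against 6.26% of all genes, and none of the 5 lectins and isomerases. With the set term, HSPA5, SDF2L1 and CALR were also lower and ERN1 higher after BRM knockdown. That made 7 lower and 1 higher of the 21, where this fit called 13.7% of all genes lower and 18.3% higher. The median log2 change was −0.71 after BRG1 knockdown, −0.57 after BRM knockdown and −0.76 in the double knockdown. By set these medians were −0.77 and −0.74, −0.28 and −0.52, and −0.55 and −1.05, against 0.02, 0.03 and 0.02 over all genes. Hepatocyte markers differed between the same groups: their summed level was 6352 to 19718 CPM after BRG1 knockdown, 51096 to 55862 after BRM knockdown and 12013 to 26531 in the double knockdown, against 26070 to 38987 with NS. The 13 markers of other cells summed to 1174 to 1666, 238 to 404 and 501 to 594 CPM in those knockdowns, against 707 to 1996 with NS. LYZ, 1 of these 13, alone ranged from 76.6 to 1654 CPM over the libraries, all from a single cell line. The part of these markers in the chaperone changes was not tested.

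HSPA5, the HSP70 chaperone BiP that also holds the 3 sensors inactive (chromosome 9, 125234853 to 125241330, minus strand), was present at 638, 545, 1077 and 1093 CPM after BRG1 knockdown, 901, 829 and 1195 after BRM knockdown and 766, 786, 524 and 867 in the double knockdown, against 1499.6, 1362, 1843 and 2123 with NS. Every knockdown library lay below every NS library. HSPA5 changed by −1.03 ± 0.26 on the log2 scale after BRG1 knockdown (adjusted p = 0.0102, by set −1.28 and −0.91) and by −1.21 ± 0.26 with both hairpins (adjusted p = 0.00391, by set −0.88 and −1.56). After BRM knockdown it was −0.81 ± 0.28 and passed with the set term (adjusted p = 0.0717 without and 0.0141 with it).

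HSP90B1, the ER HSP90 known as GRP94, which shares exon bases with C12orf73 and TTC41P (chromosome 12, 103930107 to 103953645, plus strand), was present at 537, 464, 655 and 615 CPM after BRG1 knockdown, 1010.1, 575 and 911 after BRM knockdown and 665, 711, 346 and 571 in the double knockdown, against 1326, 1187, 1157 and 1313 with NS. All knockdown libraries lay below all NS libraries. HSP90B1 gave a log2 change of −1.13 ± 0.23 after BRG1 knockdown (adjusted p = 0.00282, by set −1.33 and −0.999) and −1.12 ± 0.23 in the double knockdown (adjusted p = 0.00314, by set −0.87 and −1.48). After BRM knockdown it was −0.58 ± 0.25 (adjusted p = 0.147).

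Of the other chaperones and cofactors, DNAJB11, MANF and CRELD2 were lower in BRG1 knockdown and in the double knockdown. DNAJB11, a J protein that delivers unfolded substrates to BiP, shares exon bases with TBCCD1 (chromosome 3, 186567403 to 186585800, plus strand) and was present at 75.1, 69.4, 88.8 and 81.1 CPM after BRG1 knockdown, 98.7, 70.5 and 82.6 after BRM knockdown and 99.04, 109, 58.3 and 66.2 in the double knockdown, against 160.1, 153, 127 and 149 with NS. All knockdown libraries were below NS. DNAJB11 gave log2 changes of −0.90 ± 0.20 after BRG1 knockdown, −0.81 ± 0.22 after BRM knockdown and −0.82 ± 0.20 in the double knockdown (adjusted p = 0.00419, 0.0219 and 0.00783), and by set −1.11 and −0.74, −0.89 and −0.82, and −0.59 and −1.19.

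MANF, a small secreted protein that binds BiP (chromosome 3, 51385047 to 51389397, plus strand), was present at 14.04, 4.704, 19.5 and 23.5 CPM after BRG1 knockdown, 26.8, 14.8 and 35.7 after BRM knockdown and 13.01, 11.3, 12.9 and 19.3 in the double knockdown, against 39.1, 34.5, 47.4 and 42.1 with NS. BRG1 knockdown and double knockdown libraries lay below all NS libraries, and 1 BRM knockdown library overlapped NS. On the log2 scale MANF changed by −1.40 ± 0.38 after BRG1 knockdown (adjusted p = 0.0163, by set −1.96 and −1.09) and with both hairpins by −1.53 ± 0.39 (adjusted p = 0.0108, by set −1.60 and −1.52). CRELD2, an ER stress-induced protein with disulfide isomerase activity, shares exon bases with ALG12 (chromosome 22, 49918167 to 49927540, plus strand) and was present at 23.2, 19.3, 34.1 and 31.6 CPM after BRG1 knockdown, 28.3, 20.6 and 30.9 after BRM knockdown and 30.3, 30.2, 19.6 and 31.1 in the double knockdown, against 47.1, 48.4, 49.8 and 44.99 with NS. Each knockdown lowered it. CRELD2 gave log2 changes of −0.81 ± 0.20, −0.84 ± 0.22 and −0.78 ± 0.20 in the BRG1, BRM and double knockdowns (adjusted p = 0.00988, 0.0223 and 0.0133), and by set −1.16 and −0.57, −0.97 and −0.70, and −0.66 and −0.96.

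HYOU1, a nucleotide exchange factor of BiP, changed by −0.71 ± 0.45 after BRG1 knockdown and −1.05 ± 0.45 in the double knockdown on the log2 scale, past the threshold with the block (adjusted p = 0.00602 and 0.000832, against 0.287 and 0.113 without it). DNAJC3, a J protein that also inhibits PERK, changed by −0.53 ± 0.21 after BRG1 knockdown and passed with the block (adjusted p = 0.0867 without and 0.0415 with it). SDF2L1, another BiP cofactor, changed by −0.84 ± 0.43 after BRM knockdown and passed with the set term (adjusted p = 0.222 without and 0.0155 with it). DNAJB9, a J protein that acts with BiP, did not pass in any comparison with NS. HYOU1 and SDF2L1 carry the ERSE-II and not the longer element.

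**Figure D3:**
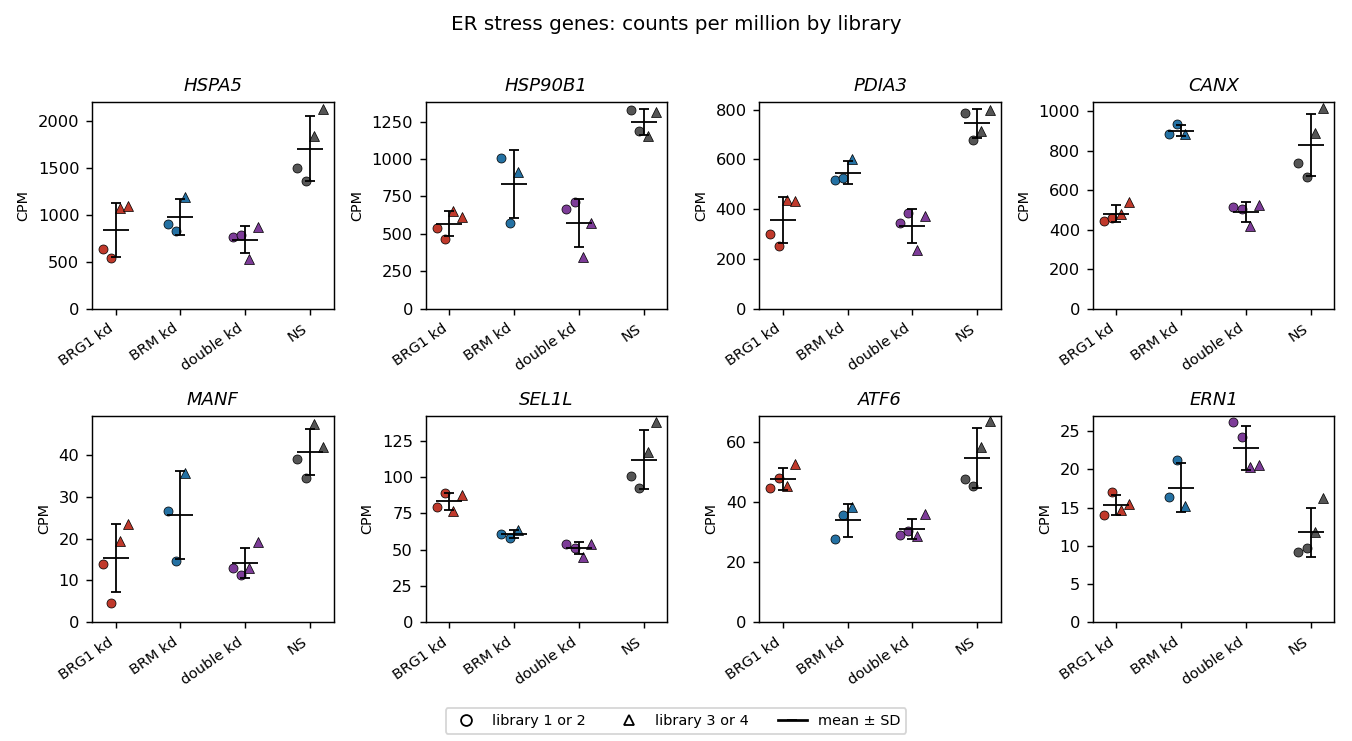
CPM per library (vertical axes, each from 0) for 8 ER stress genes by group on the horizontal axis, with libraries 1 and 2 as circles, libraries 3 and 4 as triangles and bars for mean ± SD. HSPA5 lies at 545 to 1093 CPM after BRG1 knockdown and at 1362 to 2123 with NS, and ERN1 is highest in the double knockdown.

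The lectins that hold glycoproteins during folding fell with BRG1 knockdown. CANX, the membrane lectin calnexin, shares exon bases with CBY3 (chromosome 5, 179678628 to 179730925, plus strand) and was present at 443, 459.5, 480.4 and 539.8 CPM after BRG1 knockdown, 886, 934 and 884 after BRM knockdown and 517, 506, 417 and 523 in the double knockdown, against 738, 665, 891 and 1017 with NS. BRG1 knockdown and double knockdown libraries lay below all NS libraries, and BRM knockdown libraries lay within the NS range. CANX gave a log2 change of −0.78 ± 0.16 after BRG1 knockdown (adjusted p = 0.00266, by set −0.64 and −0.94) and −0.75 ± 0.16 in the double knockdown (adjusted p = 0.00359, by set −0.46 and −1.07), while BRM knockdown gave 0.12 ± 0.17 (adjusted p = 0.72). CALR, its soluble counterpart calreticulin (chromosome 19, 12938578 to 12944489, plus strand), was present at 578, 546, 939.5 and 991 CPM after BRG1 knockdown, 702, 783 and 1304 after BRM knockdown and 736, 794, 783 and 1043 in the double knockdown, against 1243, 1049.8, 1622 and 1598 with NS. The BRG1 knockdown and double knockdown libraries all lay below NS. BRG1 knockdown gave CALR a log2 change of −0.85 ± 0.26 (adjusted p = 0.0284, by set −1.03 and −0.78). With both hairpins it was −0.72 ± 0.26, past the threshold with the block (adjusted p = 0.0626 without and 0.00262 with it). BRM knockdown gave −0.57 ± 0.28, past it with the set term (adjusted p = 0.213 without and 0.0181 with it).

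The disulfide isomerases, which form and rearrange disulfide bonds, fell in both BRG1 knockdown and double knockdown. PDIA3, the partner of calnexin and calreticulin, shares exon bases with ELL3 (chromosome 15, 43746392 to 43773279, plus strand) and was present at 299.8, 253, 438 and 432 CPM after BRG1 knockdown, 515, 527 and 599.8 after BRM knockdown and 345, 384, 234 and 372 in the double knockdown, against 789, 678, 716 and 797 with NS. Every knockdown library lay below NS. PDIA3 changed on the log2 scale by −1.07 ± 0.20 after BRG1 knockdown, −0.44 ± 0.22 after BRM knockdown and −1.16 ± 0.20 in the double knockdown (adjusted p = 0.00176, 0.211 and 0.00102), and by set −1.41 and −0.84, −0.49 and −0.42, and −1.01 and −1.37. The change after BRM knockdown did not pass.

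PDIA4 (chromosome 7, 149003062 to 149028641, minus strand) was present at 193, 190.04, 324 and 339.5 CPM after BRG1 knockdown, 477, 483 and 565 after BRM knockdown and 301, 302, 244 and 346 in the double knockdown, against 432, 382, 629 and 703 with NS. Its log2 change was −1.04 ± 0.24 after BRG1 knockdown (adjusted p = 0.00643, by set −1.09 and −1.04) and −0.85 ± 0.24 in the double knockdown (adjusted p = 0.0206, by set −0.43 and −1.22). The BRG1 knockdown and double knockdown libraries were below all NS libraries, BRM knockdown overlapped NS, and its change of −0.08 ± 0.26 did not pass (adjusted p = 0.893). PDIA6, which shares exon bases with ATP6V1C2 (chromosome 2, 10783391 to 10837977, minus strand), was present at 396, 359, 452 and 458 CPM after BRG1 knockdown, 701, 739 and 682 after BRM knockdown and 502, 518, 359.8 and 439 in the double knockdown, against 656, 635, 673 and 736 with NS. Its BRG1 knockdown and double knockdown libraries were again all below NS. PDIA6 changed by −0.70 ± 0.15 after BRG1 knockdown and −0.57 ± 0.15 in the double knockdown (adjusted p = 0.00397 and 0.0137, by set −0.77 and −0.67, and −0.34 and −0.86).

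Of the degradation genes, SEL1L fell in every knockdown, and EDEM1 rose in the double knockdown. SEL1L, the adaptor of the HRD1 ubiquitin ligase (chromosome 14, 81471549 to 81533861, minus strand), was present at 79.01, 89.2, 76.8 and 87.3 CPM after BRG1 knockdown, 61.003, 57.9 and 63.2 after BRM knockdown and 53.7, 50.99, 45.1 and 53.7 in the double knockdown, against 101, 92.01, 117 and 138 with NS. All knockdown libraries lay below all NS libraries, and the double knockdown libraries were lowest. SEL1L gave log2 changes of −0.43 ± 0.14 after BRG1 knockdown, −0.88 ± 0.15 after BRM knockdown and −1.14 ± 0.14 in the double knockdown (adjusted p = 0.0376, 0.00167 and 6.67e-05), and by set −0.20 and −0.67, −0.70 and −1.10, and −0.88 and −1.42. EDEM1, which routes misfolded glycoproteins to degradation (chromosome 3, 5187646 to 5219957, plus strand), was present at 68.9, 89.2, 64.1 and 71.1 CPM after BRG1 knockdown, 53.2, 50.5 and 50.4 after BRM knockdown and 77.4, 55.9, 109 and 72.8 in the double knockdown, against 36.9, 35.9, 54.9 and 67.4 with NS. Its log2 change was 0.69 ± 0.23 in the double knockdown (adjusted p = 0.0411, by set 0.87 and 0.53), and the double knockdown and NS libraries overlapped. After BRG1 knockdown it was 0.59 ± 0.23 and passed with the block (adjusted p = 0.0786 without and 0.033 with it). HERPUD1 did not pass in any comparison with NS.

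Of the sensors, ATF6 (chromosome 1, 161766294 to 161964070, plus strand) was present at 44.7, 48.03, 45.2 and 52.7 CPM after BRG1 knockdown, 27.7, 35.6 and 38.4 after BRM knockdown and 29.02, 30.2, 28.8 and 35.9 in the double knockdown, against 47.7, 45.4, 58.4 and 66.7 with NS. All BRM knockdown and double knockdown libraries lay below all NS libraries, and BRG1 knockdown overlapped NS. ATF6 gave a log2 change of −0.69 ± 0.17 after BRM knockdown (adjusted p = 0.0155, by set −0.55 and −0.79) and −0.82 ± 0.16 in the double knockdown (adjusted p = 0.00176, by set −0.65 and −1.002). After BRG1 knockdown it was −0.19 ± 0.15 (adjusted p = 0.422).

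ERN1, which encodes IRE1, the nuclease that splices XBP1 (chromosome 17, 64039142 to 64130819, minus strand), was present at 14.004, 17.1, 14.7 and 15.5 CPM after BRG1 knockdown, 16.4, 21.3 and 15.2 after BRM knockdown and 26.2, 24.2, 20.3 and 20.6 in the double knockdown, against 9.13, 9.77, 11.8 and 16.3 with NS. The double knockdown libraries lay above all NS libraries, and both single knockdowns overlapped NS. Its log2 change was 0.95 ± 0.19 in the double knockdown (adjusted p = 0.00254, by set 1.42 and 0.48). It was 0.38 ± 0.19 after BRG1 knockdown (adjusted p = 0.177) and 0.58 ± 0.20 after BRM knockdown (adjusted p = 0.0728 without and 0.0353 with the set term).

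EIF2AK3, which encodes the eIF2α kinase PERK (chromosome 2, 88556741 to 88627576, minus strand), was present at 25.5, 27.9, 20.9 and 27.4 CPM after BRG1 knockdown, 24.5, 18.5 and 22.2 after BRM knockdown and 22.7, 21.99, 14.8 and 19.1 in the double knockdown, against 25.6, 23.5, 39.9 and 43.5 with NS. The double knockdown libraries lay below all NS libraries, and both single knockdowns overlapped NS. In the double knockdown its log2 change was −0.76 ± 0.21 (adjusted p = 0.0204), with −0.14 and −1.35 by set, a difference between sets of 1.17 that passed its own test (adjusted p = 0.0282). The pooled change therefore averages a small and a large one. XBP1, the factor activated by IRE1 (chromosome 22, 28794555 to 28800597, minus strand), was present at 80.4, 80.2, 298 and 366 CPM after BRG1 knockdown, 194, 276 and 355 after BRM knockdown and 276, 272, 252 and 398 in the double knockdown, against 198, 198, 645 and 658 with NS. The sets overlapped neither within NS nor within BRG1 knockdown, and the pooled groups overlapped. Its log2 change of −1.04 ± 0.52 after BRG1 knockdown passed with the block (adjusted p = 0.176 without and 0.0167 with it). With both hairpins it was −0.50 ± 0.52 (adjusted p = 0.549), with 0.47 and −1.05 by set, and these differed by 1.47 (adjusted p = 0.0148).

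Single libraries decided some of these calls. Against NS, BRG1 knockdown's call of DDIT3 was lost without BRG1 library 1, 2 or 4 or NS library 1, 2 or 4 (adjusted p = 0.065 to 0.117). Those of PSAT1 (0.0853 to 0.123), PHGDH (0.0865 to 0.0939) and CALR (0.0681 to 0.0791) were lost without BRG1 library 1 or 2 or NS library 3 or 4, as adjusted p. MTHFD2 was lost without BRG1 library 1, 2 or 3 or NS library 3 or 4 (adjusted p = 0.0536 to 0.136), and SEL1L without BRG1 library 1 or 3 or NS library 3 or 4 (adjusted p = 0.0657 to 0.12). After BRM knockdown, DDIT3 was lost without BRM library 1 or 2 or NS library 3 (adjusted p = 0.057 to 0.0998), ATF6 without BRM library 1 (adjusted p = 0.0567), DNAJB11 without BRM library 2 or NS library 1 (adjusted p = 0.0515 to 0.0943) and CRELD2 without BRM library 2 (adjusted p = 0.105). In the double knockdown, EIF2AK3 (0.054 to 0.0722) and PDIA4 (0.0545 to 0.0678) were lost without double library 3 or NS library 3 or 4, as adjusted p. EDEM1 kept its call only without double library 2, BRG1 library 3, BRM library 1 or NS library 4 (adjusted p = 0.0558 to 0.195 without any other library). The remaining calls against NS were kept without each of the 15 libraries in turn.

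**Figure D4:**
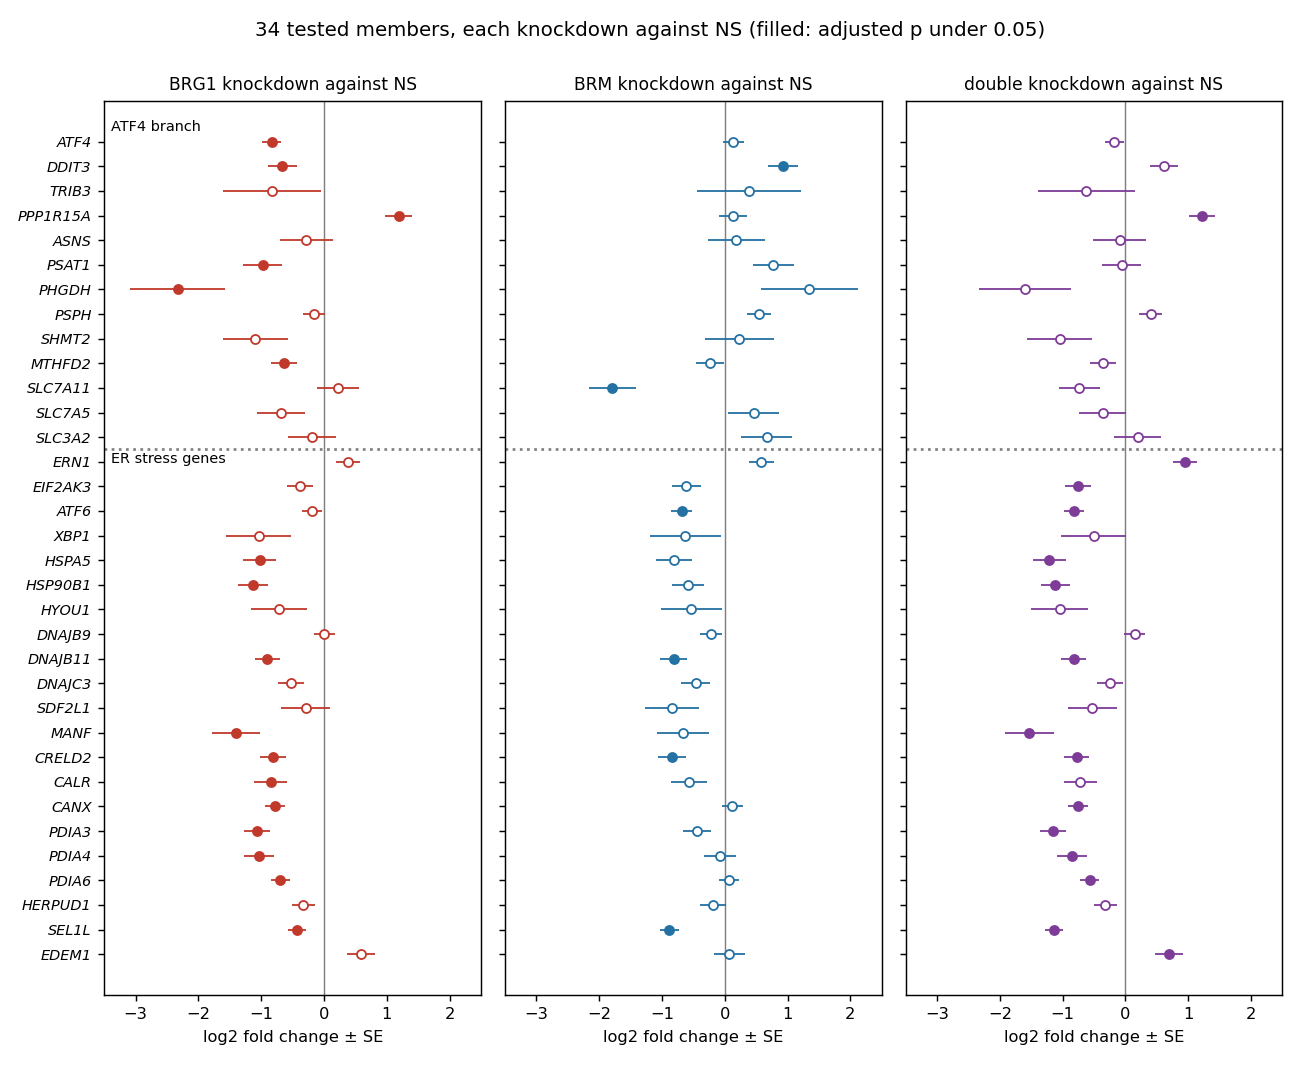
Log2 change ± SE of the 34 tested members (rows, with a dotted line between the ATF4 branch and the ER stress genes) in BRG1, BRM and double knockdown against NS (panels), filled where the edgeR adjusted p is under 0.05. Filled points below 0 number 16, 5 and 12, and filled points above 0 number 1, 1 and 3.

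Directly compared, BRG1 knockdown and BRM knockdown differed in 14 members, 4 higher and 10 lower in BRG1 knockdown. Of all genes, 33.9% differed in this comparison, 17.2% higher and 16.7% lower. In the ATF4 branch 6 of 13 were lower and 2 higher, and among the ER stress genes 4 of 21 were lower and 2 higher. The count of ER stress genes that differed does not stand above the share over all genes. DDIT3 differed by −1.60 ± 0.24 on the log2 scale (adjusted p = 0.000164) and ATF4 by −0.97 ± 0.17 (adjusted p = 0.000419). PHGDH differed by −3.68 ± 0.82 (adjusted p = 0.00304), PSAT1 by −1.75 ± 0.33 (adjusted p = 0.000898) and PSPH by −0.71 ± 0.19 (adjusted p = 0.00979). SLC7A11 was higher in BRG1 knockdown by 2.01 ± 0.38 (adjusted p = 0.000983) and PPP1R15A by 1.06 ± 0.23 (adjusted p = 0.00228). CANX (−0.91 ± 0.17, adjusted p = 0.000841), PDIA6 (−0.76 ± 0.16, 0.00196) and PDIA4 (−0.96 ± 0.26, 0.0095) were lower in BRG1 knockdown. None of the 9 chaperones and cofactors passed. The calls of SLC7A5, ATF6, PDIA3 and SEL1L, with adjusted p of 0.0416, 0.0359, 0.0376 and 0.0309, rested on single libraries. SLC7A5 was lost without BRG1 library 1, 2 or 3, BRM library 2 or 3 or double library 3 (adjusted p = 0.0528 to 0.32), and ATF6 without BRG1 library 2 or 4 or BRM library 1 or 2 (adjusted p = 0.0563 to 0.142). PDIA3 was lost without BRG1 library 1 or 2, any BRM library or double library 1 (adjusted p = 0.0532 to 0.115), SEL1L without BRG1 library 2 or 4 or any BRM library (adjusted p = 0.0639 to 0.109) and PSPH without BRM library 2 (adjusted p = 0.0863). With the library number as a block, TRIB3 (1.01e-05), ASNS (0.0186), SHMT2 (1.74e-06), MTHFD2 (0.0318), SLC3A2 (0.000304), XBP1 (0.0434) and MANF (0.0131) also passed, as adjusted p, which made 21, where 49.4% of all genes passed.

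Between the double knockdown and BRG1 knockdown, 4 of 34 members differed, about the share over all genes. Of all genes, 10.8% were called, 4.1% higher and 6.72% lower in the double knockdown. SMARCA4 was also higher in the double knockdown, by 0.73 ± 0.16 on the log2 scale (edgeR adjusted p = 0.00858). The 2 groups thus differ in both hairpin targets, and the effects of these cannot be told apart here. ATF4 was higher in the double knockdown than in BRG1 knockdown by 0.66 ± 0.16 on the log2 scale (adjusted p = 0.0142, by set 1.03 and 0.32) and DDIT3 by 1.28 ± 0.23 (adjusted p = 0.00258, by set 1.79 and 0.75). ATF6 was lower, with a difference of −0.62 ± 0.16 (adjusted p = 0.0189, by set −0.65 and −0.61) and so was SEL1L, with −0.71 ± 0.14 (adjusted p = 0.00457, by set −0.68 and −0.74). The other 19 ER stress genes did not pass without the set term, with a median over the 21 of 0.03 that was 0.39 in libraries 1 and 2 and −0.39 in libraries 3 and 4. ATF4 was lost without double library 2 or BRG1 library 1 (adjusted p = 0.0548 to 0.0609) and ATF6 without double library 1 or 2 or BRG1 library 4 (adjusted p = 0.0509 to 0.0626). Without double library 2 the count was 2. With the set term PSAT1, PHGDH, PSPH and ERN1 were also higher and SLC7A11 lower in the double knockdown, which made 9 members, where 11.8% of all genes were higher and 13.7% lower.

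The interaction term asks whether the double knockdown departs from the sum of both single knockdown changes on the log2 scale. It passed for 0 of 34 members in edgeR, where 0.499% of all genes were called, with 4 members (ATF4, DNAJB11, DNAJC3 and CRELD2) at an unadjusted p under 0.05, and 0 in DESeq2 and in limma voom. The smallest adjusted p was 0.195, for DNAJB11, which passed with the set term (adjusted p = 0.0427), where 7.26% of all genes passed. Within libraries 1 and 2 alone, 8 members passed (ATF4, XBP1, HSPA5, DNAJB11, SDF2L1, CRELD2, CALR and PDIA3), where 11.2% of all genes passed. In 19 of the 21 ER stress genes the pooled estimate lay above 0, that is, the double knockdown was less low than the sum of the single changes. The median was 0.35 against −0.05 over all genes, and the share of all genes above 0 was not counted. By set the median was 0.42 and 0.30, and only 11 of the 21 had the same sign in both sets. For the 9 chaperones and cofactors the medians by set were 1.12 and 0.16, so the pooled count does not show a pattern shared by the sets.

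Many of these genes differed between the sets, as did many of all genes. With a term for the set, 10 of 13 tested genes of the ATF4 branch and 8 of 21 ER stress genes were lower in libraries 1 and 2, and 0 were higher. Of all genes, 55.6% differed in either direction, and the share lower was not counted. The ER stress genes that differed are below that 55.6%. TRIB3 (−2.17), PHGDH (−1.96), SHMT2 (−1.37), XBP1 (−1.21) and HYOU1 (−1.14) differed most on the log2 scale. Every called change had the same sign in both sets: 17 of 17 for BRG1 knockdown, 6 of 6 for BRM knockdown and 15 of 15 for the double knockdown. These calls were made on the same libraries pooled, so this agreement was largely fixed in advance and is no separate support. Over all 34 tested members, called or not, 31, 24 and 27 had the same sign in both sets. The share of all genes with the same sign was not counted, so whether these counts stand above it cannot be told. A difference of the change between sets passed in edgeR for 1 member in BRM knockdown (PSAT1, 1.45, adjusted p = 0.0265) and 2 in the double knockdown (EIF2AK3 and XBP1).

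**Figure D5:**
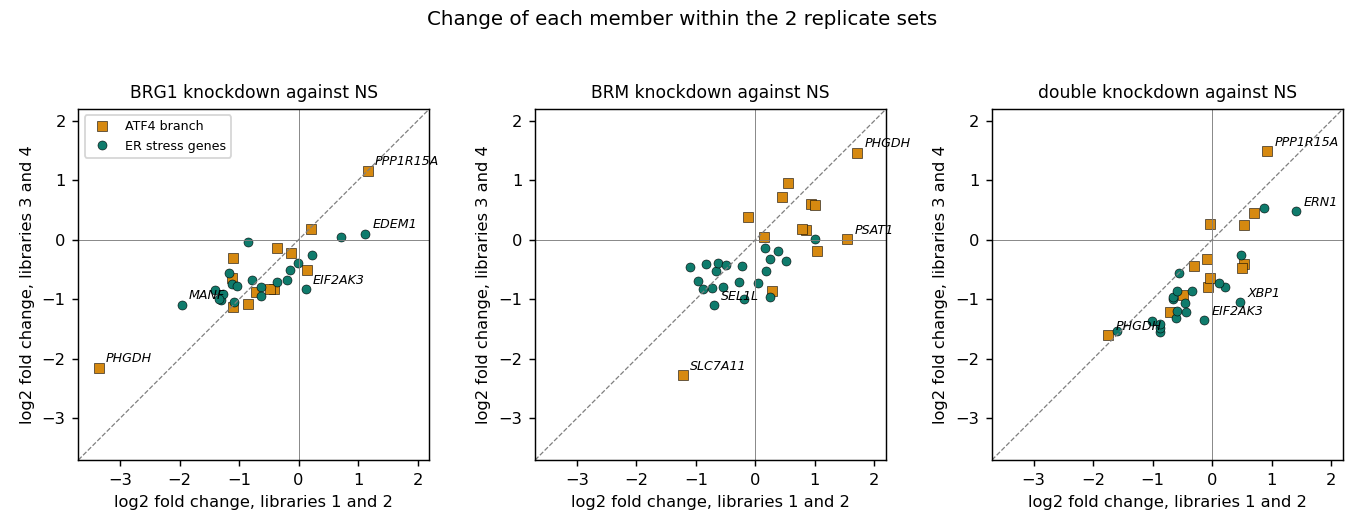
Log2 change against NS within libraries 1 and 2 (horizontal axis) and within libraries 3 and 4 (vertical axis) for the 34 tested members, in a panel per knockdown, with squares for the ATF4 branch and circles for ER stress genes and the diagonal for equal change. PHGDH gave −3.36 and −2.15 in BRG1 knockdown, and EIF2AK3 gave −0.14 and −1.35 in the double knockdown.

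The promoter motifs and the changes can be set side by side. Of the 7 members with an ERSE, HSPA5, HSP90B1, CRELD2, CALR, CANX and PDIA6 were lower after BRG1 knockdown, and XBP1 did not pass. HSPA5, HSP90B1, CRELD2, CANX and PDIA6 were lower in the double knockdown, and CRELD2 was lower after BRM knockdown, as were HSPA5 and CALR with the set term. Of the 3 members with an ERSE-II, HYOU1 was lower in BRG1 knockdown and double knockdown with the block, SDF2L1 was lower after BRM knockdown with the set term, and HERPUD1 did not pass against NS. Of those with the ATF4 core, SLC3A2 was higher after BRM knockdown with the set term, and ASNS did not pass against NS. DNAJB11, MANF, PDIA4 and SEL1L, lower after BRG1 knockdown, held none of the 3 motifs in the window searched. The same held for the ATF4 branch genes lower after BRG1 knockdown, namely ATF4, DDIT3, PSAT1, PHGDH and MTHFD2. PDIA3, also lower, had no window.

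Other genes of the same pathways were taken from 4 lists with 105 genes in all, and are given with their log2 change ± SE. After BRG1 knockdown, 7 of 35 other ER folding and translocation genes were lower, against 9.97% of all genes, led by ERP29 (−0.75 ± 0.17, adjusted p = 0.00466), SSR1 (−0.56 ± 0.13, 0.00497), CREB3L2 (−0.995 ± 0.23, 0.00679) and TXNDC5 (−0.64 ± 0.17, 0.0139). ERP29 is a chaperone of secreted proteins and SSR1 a subunit of the translocon-associated TRAP complex. BRM knockdown lowered 10 of these 35, against 6.26% of all genes, led by ATF6B (−1.38 ± 0.26, adjusted p = 0.00293), the paralog of ATF6, then SSR3 (−0.97 ± 0.19, 0.00387), FKBP14 (−0.99 ± 0.22, 0.00758) and ERO1A (−0.81 ± 0.16, 0.00475). The double knockdown lowered 8 of the 35, against 9.9% of all genes, led by ATF6B (−1.47 ± 0.24, adjusted p = 0.0005), CREB3L2 (−1.30 ± 0.24, 0.00121), SEC24D (−1.11 ± 0.26, 0.00698) and SSR1 (−0.49 ± 0.13, 0.0112). The list's medians were −0.39 for BRG1, −0.37 for BRM and −0.38 for double knockdown.

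Of 32 other ATF4 targets and stress kinases, BRG1 knockdown raised 4 and lowered 1, BRM knockdown raised 3 and lowered 1, and the double knockdown raised 6 and lowered 3. Over all genes, 12.5%, 7.66% and 11.8% were raised and 9.97%, 6.26% and 9.9% lowered in the BRG1, BRM and double knockdowns, so the raised genes after either single knockdown are at about the share over all genes. KLHL24 (1.38 ± 0.24, adjusted p = 0.00104) and SLC38A2 (0.84 ± 0.20, 0.00758), a neutral amino acid transporter, were higher after BRG1 knockdown, as was EIF2S1 (0.53 ± 0.14, 0.012), which encodes eIF2α, and STC2 (−1.07 ± 0.31, 0.0238), a secreted glycoprotein, was lower. BRM knockdown raised the stress factor ATF3 (1.92 ± 0.36, adjusted p = 0.00274), its relative JDP2 (1.32 ± 0.34, 0.0193) and SESN2 (1.42 ± 0.37, 0.0211), a leucine sensor, and lowered MTHFD1L (−0.88 ± 0.25, 0.0295). The double knockdown raised NUPR1 (2.40 ± 0.45, adjusted p = 0.00154) and EIF2S1 (0.73 ± 0.14, 0.00169) and lowered STC2 (−1.59 ± 0.32, 0.00247) and VLDLR (−1.58 ± 0.36, 0.00574). The list's medians were −0.12 for BRG1, −0.01 for BRM and −0.21 for double knockdown.

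Of 18 cytosolic aminoacyl-tRNA synthetases, which charge tRNAs, 2 were higher after BRG1 knockdown, 1 after BRM knockdown (SARS, 1.09 ± 0.27, adjusted p = 0.0168) and 1 in the double knockdown, where IARS was lower (−0.81 ± 0.23, 0.0188). CARS was higher after BRG1 knockdown (0.55 ± 0.14, adjusted p = 0.012) and in the double knockdown (0.52 ± 0.14, 0.0186). These counts do not stand above the shares over all genes. Of 19 tested among 20 other degradation genes, 2 were higher after BRG1 knockdown, HERPUD2 (0.83 ± 0.20, adjusted p = 0.00784) and FAF2 (0.68 ± 0.17, 0.00966). BRM knockdown raised FAF2 (0.71 ± 0.18, adjusted p = 0.0184) and lowered ERLEC1 (−0.82 ± 0.19, 0.0115) and UBE2J1 (−0.60 ± 0.19, 0.0447). In the double knockdown FAF2 (0.94 ± 0.17, adjusted p = 0.00118), HERPUD2 (0.73 ± 0.20, 0.0167) and UFD1 (0.50 ± 0.17, 0.043) were higher. The 2 degradation genes raised by BRG1 knockdown are below the 12.5% raised over all genes, and the 3 of the double knockdown stand beside 11.8%.

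The authors' deposited tables, whose baseline group they do not name, carry the sign of knockdown minus NS at SMARCA4 and SMARCA2. In the authors' deposited table for BRG1 knockdown, 1 member was higher and 17 lower at an adjusted p under 0.05, in that for BRM knockdown 1 and 6, and in that for the double knockdown 3 and 13. All 17, 6 and 15 members called by edgeR were called there too. Both rest on libraries of the same series, so this agreement was largely fixed in advance and is no separate support. The shares of all genes called in the authors' deposited tables were not counted. The authors' deposited tables added DNAJC3 in BRG1 knockdown (adjusted p = 0.049), HSPA5 in BRM knockdown (adjusted p = 0.0295) and CALR in the double knockdown (adjusted p = 0.0353).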

How the data were processed

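Libraries were made from total RNA with a Kapa mRNA kit, per the labels' protocols. The authors deposited whole-number counts per gene symbol, not normalized between libraries. The submitters' processing notes name Kallisto, DESeq2 and GRCh38. For versions, annotation and strand, the setting is not given in the sources used here. Reads that fit several transcripts are divided by estimation in Kallisto, and without a stated strand setting reads of overlapping genes cannot be told apart. Named pseudogene copies held at most 0.75% of a member's combined counts. The authors' deposited comparison tables give, per the file headers, a mean normalized signal, the log2 fold change and its SE, the test score and the raw and adjusted p-values.

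All 35 members matched by symbol. Counts were used as deposited. Genes passing filterByExpr (14621) were fitted with edgeR 4.0.16 under R 4.3.3 (quasi-likelihood F test, TMM factors), with group means over all 15 libraries. The p-values are 2-sided and were adjusted by Benjamini-Hochberg over every tested gene, with calls under 0.05, and SE is the size of the log2 change divided by the square root of F. Levels are compared within a gene only, since CPM are not per length. Coordinates are from GENCODE v29, which matched 33662 symbols. Promoters are from RefSeq, and the ERSE-II was added to the motifs after the promoters were seen.

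The members and lists were chosen with earlier results of these data known. Values per library are given for members called against NS in at least 1 comparison, for ATF4 and DDIT3 and for the sensors and XBP1. Up to 4 called genes per wider list and comparison are named by smallest adjusted p. For single members, the library-number block is given where same-numbered libraries deviated from their group means with a correlation over 0.1 in every pair. BRG1 with NS (lowest 0.427), double with NS (lowest 0.179) and BRG1 with BRM (lowest 0.104) met this. The block was fitted once over all 15 libraries. That fit includes BRM with NS (lowest 0.0733), BRG1 with double (lowest 0.0578) and BRM with double (lowest 0.0133), which did not meet it. Same-numbered libraries always share a set, and differently numbered libraries of a set were not compared. The criterion therefore cannot tell pairing by number from the set difference, which the block takes up too. The fit was tested on simulated counts. Alternatives were DESeq2 1.42.0, limma 3.58.1 voom, RLE factors, no filter, only the groups compared, each set alone, the block, a set term and leaving out each library.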

Additional observations from a re-analysis of the deposited data

Results flagged for a closer look

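In 5 of 105 groups of 4 libraries examined (35 members in 3 groups), 1 library lay far from the others of its group by Dixon's criterion, and chance gives about 1 in 20. ATF4 stood at 397 CPM in NS library 2, against 382 to 383 in the others. In the double knockdown, library 4 held XBP1 at 398 CPM (others 252 to 276) and SDF2L1 at 44.2 CPM (others 22.3 to 23.8), and library 3 held CRELD2 at 19.6 CPM (others 30.2 to 31.1) and CANX at 417 CPM (others 506 to 523).

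The change against NS differed between libraries 1 and 2 and libraries 3 and 4, by edgeR's test of that difference, for 3 values. After BRM knockdown the log2 change of PSAT1 differed by 1.45 (adjusted p = 0.0265), where 2.26% of all genes passed. EIF2AK3 differed by 1.17 (adjusted p = 0.0282) and XBP1 by 1.47 (adjusted p = 0.0148) in the double knockdown, where 3.71% of all genes passed. The high-numbered set has 1 BRM library.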

How the results depend on the processing

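Counts of called members, here and below with the share of all genes called in brackets, were 17 (22.5%), 6 (13.9%) and 15 (21.6%) for BRG1, BRM and double knockdown against NS. They were 14 (33.9%) for BRG1 against BRM, 4 (10.8%) for double against BRG1 and 0 (0.499%) for the interaction. RLE factors, limma voom and fitting only the groups compared left each count within 1.5 times of these. DESeq2 gave 7 (14.6%) for double against BRG1, and no filter gave 2 (4.79%). Libraries 1 and 2 alone gave 17 (28.1%) for BRM, 24 (50.1%) for BRG1 against BRM, 14 (27.5%) for double against BRG1 and 8 (11.2%) for the interaction. Libraries 3 and 4 alone gave 23 (34.3%) for the double knockdown, and hold 1 BRM library, so no count is given for BRM. The library number as a block gave 24 (36.4%) for BRG1, 22 (35.6%) for the double knockdown, 21 (49.4%) for BRG1 against BRM and 0 (4.33%) for the interaction, with no call lost. For BRM against NS and double against BRG1 the numbers did not meet the correlation criterion (lowest 0.0733 and 0.0578), and the replicate block gave 17 (28.4%) and 9 (22.3%). A set term gave 17 (32%) for BRM, 22 (52.4%) for BRG1 against BRM and 9 (25.5%) for double against BRG1. It gave 1 (7.26%) for the interaction (DNAJB11, edgeR adjusted p = 0.0427). Leaving out 1 library gave 11 to 18 for BRG1 (11 without BRG1 library 1, 16.5%) and 3 to 8 for BRM (3 without BRM library 2, 6.46%). It gave 12 to 15 for the double knockdown and 10 to 14 for BRG1 against BRM. For double against BRG1 it gave 2 to 6 (2 without double library 2, 6.4%) and for the interaction 0 to 0. Of single members, PSAT1 in the double knockdown reversed, with a log2 change of 0.51 in libraries 1 and 2 alone (adjusted p = 0.0488) against −0.06 over all libraries. Against NS, DDIT3, PHGDH, MTHFD2 and SEL1L in BRG1 knockdown and EDEM1 in the double knockdown lost their calls without the filter, and also with only the groups compared. With only the groups compared, PSAT1 in BRG1 knockdown and DDIT3 and ATF6 in BRM knockdown lost theirs too, and with voom DDIT3 in BRG1 knockdown did. The causes were not tested. CHAC1 had too few counts for any test at this depth.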
